A study of Homo sapiens with 3 samples.

Results

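The 10 genes described here encode ABC efflux transporters, and they were taken by symbol from the 33538 gene rows of the count matrices: ABCA1, ABCB1, ABCC1, ABCC2, ABCC3, ABCC4, ABCC5, ABCG2, ABCG5 and ABCG8. Their mRNA was counted in single cells of a Transwell co-culture of Caco-2 (passage 8) and HT29 (passage 13), both human colorectal adenocarcinoma lines, seeded apically at a ratio of 9 to 1. The 2 control wells received no lipopolysaccharide (LPS) and were harvested on day 23. The single LPS well received 1 ng/ml of LPS from Escherichia coli O111:B4 on day 22 and was harvested 24 h later, on day 23. Each well gave 1 library, so there were 2 control replicates and 1 LPS replicate, all with both lines together. The controls differ from the LPS well only in the agent, as far as the labels say. Both lines are cancer lines kept in 1 chamber without stroma, blood vessels or immune cells, which limits the wells as a model of the gut lining.

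ABC transporters use ATP to push substrates across a membrane. In the gut lining, ABCB1 (P-glycoprotein), ABCG2 (breast cancer resistance protein) and ABCC2 (MRP2) are known to sit at the apical membrane, where they return drugs and conjugates to the lumen. ABCC1, ABCC3, ABCC4 and ABCC5 belong to the same MRP family as ABCC2, and ABCC3 in particular is known as a basolateral exporter of glucuronides and bile acids. ABCA1 loads cholesterol onto lipid-poor apolipoprotein A1, while ABCG5 and ABCG8 work only as a pair that returns plant sterols and cholesterol to the lumen.

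After filtering, 4633, 4989 and 4850 cells were kept in control 1, control 2 and LPS. The kept cells held 29950386, 24482305 and 20361105 UMIs (unique molecular identifiers, each standing for 1 captured mRNA), with a median of 5462, 4104 and 3574 per cell. Thus the LPS library was the shallowest. Any 2 libraries shared 9 to 11 barcodes, and 0 of these barcodes held identical counts. A level below is always UMIs of a gene per 1000000 UMIs of a group of cells (CPM), summed over the cells of 1 library, and its error is the SD over the 2 controls. The libraries come from separate wells per the series' design. Between lines and between classes, p-values rest on the spread of sums between wells. The main fits held a term for LPS and did not pair the sums of 1 well. Their spread therefore comes from the 2 controls and from any departure of the difference in the LPS well from theirs. For LPS, with 1 well, p-values rest on the spread between the 2 controls and on information shared across genes. Intervals on single libraries are exact Poisson intervals at 95% and cover counting error only. Since reads come from the 3′ end of each molecule, CPM needs no correction for gene length.

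Cells were sorted into lines and classes by clustering without any ABC family gene. Clusters held 11472 Caco-2-like and 2539 HT29-like cells. Within them, 724 intestinal stem cell-like cells (ISCLC), 4224 transit amplifying-like cells (TALC), 2092 enterocyte-like cells (ECLC) and 191 enteroendocrine-like cells (EECLC) were Caco-2-like, while 180 goblet-like cells (GCLC) and 2309 undifferentiated HT29 cells (U-HT29) were HT29-like. A further 333 LYZ+ ECLC and 68 cells expressing fetal genes (FGEC) were given to neither line, and 4351 cells were left unnamed. LYZ+ ECLC had 13 of the 16 HT29 and 9 of the 16 Caco-2 line markers raised, with a median of 12956, 5435 and 8148 UMIs per cell, above that of each whole library. FGEC had 1 and 4 raised. The part of cells of both lines caught together in these levels was not tested. Only 8 FGEC came from the LPS library. The line calls of EECLC and GCLC rest on few raised markers. Of the 16 HT29 and 16 Caco-2 line markers, 0 and 3 were raised in EECLC. In the larger GCLC cluster 6 and 1 were raised, and in the smaller 3 and 1. The mean log2 ratio of either marker list was below 0 in each of these clusters. The 16 HT29 line markers summed to 2159 to 2824 CPM in HT29-like cells and to 17.2 to 22.6 CPM in Caco-2-like cells. The 6 fibroblast markers summed to at most 21.7 CPM over a whole library. In HT29-like cells they summed to 24.6, 33.6 and 31.9 CPM in control 1, control 2 and LPS, with COL1A2, COL3A1 and DCN at 0 UMIs. The 6 leukocyte markers summed to at most 12.4 CPM over a whole library and to 22.5 CPM in the HT29-like cells of control 1. The 6 endothelial markers summed to at most 2.29 CPM over a whole library.

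Promoter sequence is shown for 3 regions, of genes picked by their levels: ABCC2 and ABCB1 differed most between the lines, and ABCG5 and ABCG8 were almost unread. No comparison below uses these sequences, and their part in the levels was not tested. The table of RefSeq (GRCh38.p14) promoters used here was matched by 8 of the 10 genes, and those of ABCC1 and ABCC3 are not shown. Each region was searched on both strands for the motif AGATAA, to which GATA factors of the gut bind, and for the CCAAT box, a common promoter element spelled by its name. Further motifs were searched too: the HNF1 half-site, the E-box, the antioxidant response element core and direct repeat 4. They had 0 matches in these regions, so only motifs with a match are described. By their RefSeq starts, ABCG5 and ABCG8 have 131 bases between them and run away from each other, so a single interval, chr2:43838840-43838970 on the plus strand, holds the start-proximal sequence of both. The second region is the 250 bases before the ABCC2 start, chr10:99782390-99782639 on the plus strand. The third is the 250 bases before the inner of 2 listed ABCB1 starts, chr7:87600885-87601134, read on the minus strand. The 250 bases before the outer start, chr7:87713296-87713545, hold 1 GATA motif and 0 CCAAT boxes and are not shown. The inner start was picked because a CCAAT box lies before it. Capitals mark the GATA motif in the first sequence and the CCAAT box in the third, and the ABCC2 sequence holds neither.
ABCG5 to ABCG8 interval: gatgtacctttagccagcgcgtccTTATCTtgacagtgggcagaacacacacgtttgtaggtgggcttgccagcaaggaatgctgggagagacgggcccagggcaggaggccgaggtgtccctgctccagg
ABCC2 upstream: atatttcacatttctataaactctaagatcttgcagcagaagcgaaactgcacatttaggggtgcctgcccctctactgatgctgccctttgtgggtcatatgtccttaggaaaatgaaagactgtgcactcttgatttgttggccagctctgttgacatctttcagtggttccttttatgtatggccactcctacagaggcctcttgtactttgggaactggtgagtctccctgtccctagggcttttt
ABCB1 upstream: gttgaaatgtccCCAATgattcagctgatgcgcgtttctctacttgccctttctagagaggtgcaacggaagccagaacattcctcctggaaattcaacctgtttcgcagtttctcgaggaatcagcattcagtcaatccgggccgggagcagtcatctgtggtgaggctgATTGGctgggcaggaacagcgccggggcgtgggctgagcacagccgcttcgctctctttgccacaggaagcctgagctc
The interval between ABCG5 and ABCG8 holds 1 GATA motif, in reverse. Over all 35116 promoters of the table, 4.39% held that motif in the 131 bases before the start, and 32.0% held a CCAAT box in the 250 bases before it. The ABCB1 sequence holds 2 CCAAT boxes, the first of them on the strand shown and the other in reverse. These are matches of letters and say nothing about binding in these cells.

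The 10 genes together took 5183, 4668 and 4500 UMIs in control 1, control 2 and LPS, or 173, 191 and 221 CPM. ABCC3, ABCA1 and ABCC2 gave 87.7%, 86.4% and 87.6% of these UMIs. ABCC3 (chr17:50634777-50692253, plus strand) was the highest of the set, at 83.6 CPM in control 1, 98.4 in control 2 and 109 in LPS. Next came ABCA1 (chr9:104781006-104928155, minus strand) at 34.2 ± 0.73 CPM and ABCC2 (chr10:99782640-99852594, plus strand) at 33.1 ± 0.63 CPM (SD, n = 2 controls). The Poisson intervals of ABCA1 and ABCC2 overlapped in both controls. ABCC4 followed at 8.04 ± 0.36, ABCC5 at 6.59 ± 1.01, ABCC1 at 3.87 ± 0.37 and ABCG2 at 3.61 ± 1.66 CPM. The control ranges of ABCG2 and ABCC1 overlapped, so these neighbours could not be put in order, whereas ABCC4 lay above ABCC5 in both controls. The multidrug transporter ABCB1 reached only 1.13 ± 0.33 CPM.

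The sterol pair was almost unread. ABCG8 had 5, 14 and 12 UMIs in the 3 libraries, and ABCG5 had 1, 0 and 1. In control 2 a count of 0 allows a level of up to 0.123 CPM for ABCG5 (3 counts of the total). The gene intervals of ABCG5 and ABCG8 in the GENCODE annotation, unlike the RefSeq starts above, overlap on opposite strands. Among 48 ABC family genes ranked by control mean, ABCC3 was number 2, ABCA1 number 5, ABCC2 number 6 and ABCG5 number 42. High levels among the other ABC genes were those of ABCF1 at 92.7 ± 3.23 CPM, ABCA7 at 83.8 ± 16.0, ABCE1 at 44.8 ± 0.57 and the chloride channel CFTR at 26.3 ± 1.05. ABCF1 and ABCE1 act in translation and move no substrate across a membrane.

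**Figure D1:**
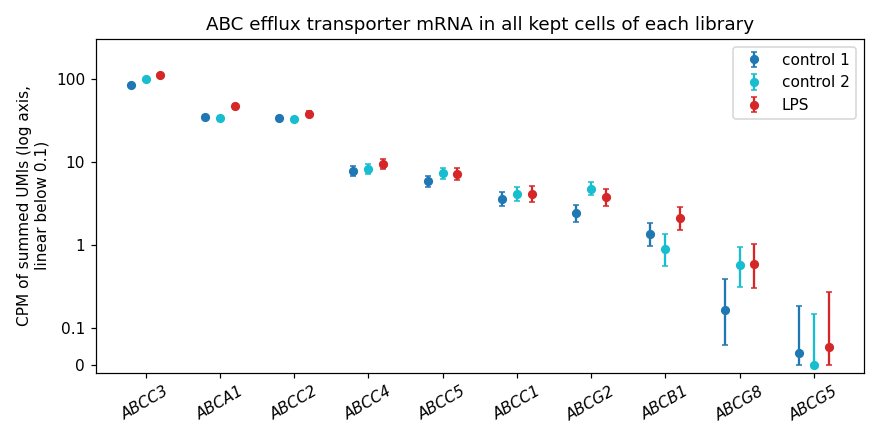
CPM of each transporter over all kept cells of each library (points, log axis that is linear below 0.1), with exact Poisson 95% intervals. ABCC3, ABCA1 and ABCC2 lie between 32.6 and 109 CPM in all 3 libraries, and ABCG5 and ABCG8 lie below 1 CPM.

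The first comparison asks how the lines share these transporters, within the same wells. The apical exporters ABCC2, ABCB1 and ABCG2 and the MRP family member ABCC5 were lower in HT29-like cells, while ABCC1, ABCC3 and ABCC4 were higher. Of the 8 genes that passed the filter on low counts, 3 were higher, 4 lower and 1, ABCA1, did not pass the test, against 33.6% higher and 36.2% lower of all 14433 genes tested (edgeR quasi-likelihood test, Benjamini-Hochberg adjusted p under 0.05, n = 3 libraries per line). The lines thus differed in 69.7% of all genes, and the share among the transporters was near that background. The median fitted log2 difference was -0.42 over the 8 genes and -0.06 over all genes.

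ABCC2 differed most among the members with UMIs in both lines. Its level was 40.1, 40.6 and 45.8 CPM in the Caco-2-like cells of control 1, control 2 and LPS, and 3.87, 3.53 and 7.36 CPM in the HT29-like cells. The lines did not overlap. The fitted log2 difference was -3.18 (SE 0.18), with an edgeR adjusted p of 5.06e-10. It was -4.83 when cells were called one by one from their share of line markers and -2.61 with no doublets removed. RNA freed from the more numerous line can add counts to the other, and the 16 Caco-2 line markers stood in HT29-like cells at 13.8%, 10.5% and 16.7% of their summed CPM in Caco-2-like cells. ABCC2 stood there at 9.65%, 8.68% and 16.1%. By their own share of line markers, 85, 92 and 134 cells of the HT29-like clusters were called Caco-2-like. The parts of freed RNA and of such cells in the ABCC2 level of HT29-like cells were not tested. With every cell thinned to 1500 UMIs, 6.22% ± 0.0017 of Caco-2-like control cells and 0.424% ± 0.032 of HT29-like control cells held an ABCC2 UMI, and 6.41% and 1.03% did so in LPS. Before thinning, 18.9% and 1.95% of the control cells did, at median depths of 5396 and 4162 UMIs in Caco-2-like and 5510 and 3745 in HT29-like cells.

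ABCB1 (chr7:87503017-87713323, minus strand) had 41, 21 and 43 UMIs in Caco-2-like cells and 0 in the HT29-like cells of every library. The 0 was drawn from 12318227 HT29-like UMIs, which allows up to 0.244 CPM. Against that floor, taken over the group, ABCB1 was at least 7.30-fold lower in HT29-like than in Caco-2-like cells, where it stood at 1.78 CPM over the 3 libraries (edgeR adjusted p = 0.00016, n = 3 libraries). ABCG8 likewise had 30 UMIs in Caco-2-like and 0 in HT29-like cells, at least 2.09-fold lower against the same floor, although it was too low for the test. Both folds take the Caco-2-like level as exact and leave out its counting error.

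ABCG2, the third apical exporter, was read at 2.64, 4.73 and 4.14 CPM in Caco-2-like cells and at 1.14, 2.82 and 1.64 CPM in HT29-like cells. It was lower in HT29-like cells within every library, but the ranges overlapped across libraries. The fitted log2 difference was -1.06 (SE 0.37, adjusted p = 0.020 by edgeR). The call was lost with the 2 controls alone (-0.91, adjusted p = 0.11), when cells were thinned (-0.92, adjusted p = 0.17) and when cells were called one by one from their share of line markers (-0.93, adjusted p = 0.11).

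ABCC5, an exporter of cyclic nucleotides, was at 5.86, 8.07 and 7.90 CPM in Caco-2-like cells and at 2.96, 1.65 and 4.09 CPM in HT29-like cells. Each HT29-like value lay below each Caco-2-like value. The fitted log2 difference was -1.39 (SE 0.27, edgeR adjusted p = 0.00031), and -2.13 with cells thinned to 1500 UMIs.

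In the other direction, ABCC3 reached 135, 132 and 138 CPM in HT29-like cells against 75.4, 92.5 and 103 CPM in Caco-2-like cells. Again the lines did not overlap, with a fitted log2 difference of 0.54 (SE 0.11, edgeR adjusted p = 0.00048). An ABCC3 UMI was found in 45.5% ± 8.1 of HT29-like and 33.1% ± 1.5 of Caco-2-like control cells, and after thinning in 18.2% ± 0.78 and 11.6% ± 1.5.

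ABCC1, which exports glutathione conjugates, was at 10.5, 5.41 and 5.996 CPM in HT29-like cells and at 2.23, 3.44 and 3.77 CPM in Caco-2-like cells. All HT29-like values were higher than all Caco-2-like values, and the fitted log2 difference was 1.21 (SE 0.29, edgeR adjusted p = 0.0017). Control 1 held the widest gap, and without it the difference fell to 0.62 with an adjusted p of 0.058.

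ABCC4, an exporter of cyclic nucleotides and prostaglandins, was at 11.1, 11.3 and 12.3 CPM in HT29-like cells against 7.26, 7.80 and 8.58 CPM in Caco-2-like cells. These ranges did not overlap either (log2 difference 0.51, SE 0.16, edgeR adjusted p = 0.0092). After thinning the difference was 0.53 with an adjusted p of 0.078.

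ABCA1 did not separate the lines. It was at 52.1, 36.9 and 44.7 CPM in HT29-like cells and at 32.5, 33.3 and 47.8 CPM in Caco-2-like cells, with an interval of the log2 difference from -0.09 to 0.53. The value was higher in HT29-like cells in both controls and lower in LPS. When cells were called one by one from their share of line markers in place of clusters, the difference was 0.70 with an adjusted p of 0.0024.

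**Figure D2:**
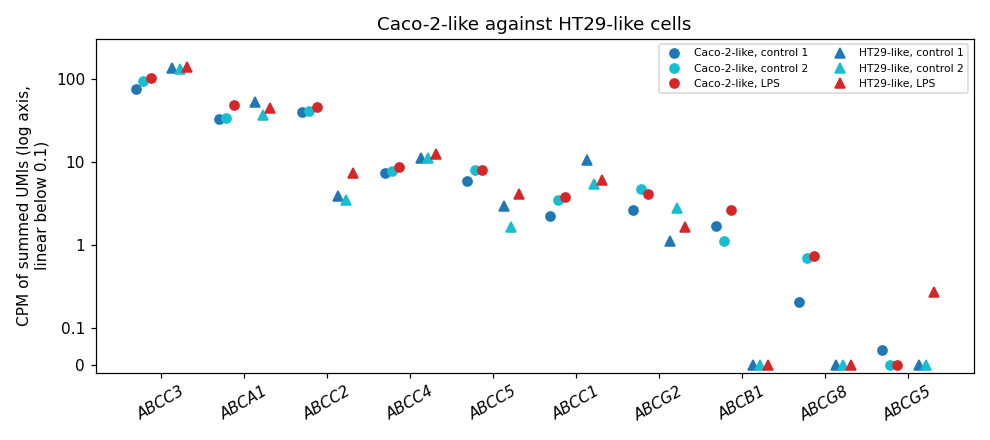
CPM of each transporter in the Caco-2-like cells (circles) and HT29-like cells (triangles) of each library, on a log axis that is linear below 0.1. ABCC2 falls from 40.1 to 45.8 CPM in Caco-2-like cells to 3.53 to 7.36 in HT29-like cells, and ABCB1 and ABCG8 sit at 0 in HT29-like cells.

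Other genes around these transporters were counted by lists. Genes outside the ABC family took part in the clustering that defined lines and classes, so their p-values are not independent of it and their counts are descriptions. Of 23 other ABC family genes tested between the lines, 10 were higher and 9 lower in HT29-like cells. The sterol exporter ABCG1, a relative of ABCG5 and ABCG8, stood out at 73.7, 85.1 and 77.7 CPM in HT29-like cells against 5.32, 5.86 and 6.05 CPM in Caco-2-like cells (log2 difference 3.73, SE 0.12). TAP1 was higher by 2.47 on the log2 scale, whereas ABCC9 fell by 3.13 on the log2 scale. Of 14 regulators of transporter genes, 3 were higher and 5 lower. The nuclear receptors NR5A2 (-3.22), NR1I3 (-2.42) and HNF4A (-2.01, all log2 differences) were lower, and NR1H2, which encodes the sterol sensor LXR beta, was higher by 1.77.

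Of 6 genes listed as apical and basolateral scaffold, 2 were higher and 3 lower. Moesin (MSN) was higher by 7.17 on the log2 scale, with 1239 UMIs in HT29-like and 39 in Caco-2-like cells. PDZK1 (-1.81), radixin (RDX, -1.51) and villin (VIL1, -1.13) were lower. Radixin is known to hold ABCC2 at the apical membrane. Of 12 uptake and bile acid transporters, 5 were higher and 6 lower, led by the uptake carrier SLCO1B3 (6.28) and by the peptide transporter SLC15A1 (-3.48), SLCO2B1 (-3.38) and SLC51A (-2.82).

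Enzymes that make conjugates carried by the MRP proteins were listed together with enzymes of glutathione synthesis. Of 15 tested, 10 were lower and 4 higher in HT29-like cells. The glutathione synthesis genes GCLM and GCLC (here the gene, not the goblet-like class) were among the higher, and GSS among the lower. The sulfotransferases SULT1E1 (-5.31) and SULT2A1 (-4.44) and the glutathione transferases GSTA2 (-4.04) and GSTA1 (-3.74) had the largest differences. Of 16 sterol handling genes, 8 were lower and 4 higher, and APOB (-4.01), MTTP (-3.93), SOAT2 (-3.50) and APOA1 (-3.47), the acceptor of ABCA1, led. All 10 mature enterocyte genes were lower, with a median of -3.58. APOA4 (-3.87) and CUBN (-3.83) led that list. APOA1, APOB and APOC3, the last from the enterocyte list, are also Caco-2 line markers. Their lower levels in HT29-like cells restate how the lines were called. A low level in HT29-like cells can hold counts freed from Caco-2-like cells, as given for ABCC2, and their part in these differences was not tested.

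The second comparison follows the Caco-2-like cells from ISCLC and TALC to ECLC. ABCC2 and ABCC3 were higher in ECLC, while ABCC4, ABCC1 and ABCC5 were lower. ISCLC and TALC were pooled because the border between them moved with the clustering. ISCLC were 724 cells here, 2560 with log normalization without integration and 2702 with the cell minimums of control 1 in every library. In the clustering used here, ISCLC alone were not below ECLC in ABCC2 and ABCC3 by the control means, although they were in LPS. Over the 2 controls they were at 51.5 ± 7.2 and 92.6 ± 7.1 CPM, against 50.04 ± 4.5 and 87.9 ± 10.2 CPM in ECLC and 33.3 ± 0.34 and 78.8 ± 13.0 CPM in TALC. Of the 8 genes tested, 2 were higher and 3 lower, against 29.0% higher and 28.5% lower, or 57.6% in either direction, of all 13078 genes (n = 3 libraries per class). The share among the transporters was again near the background. CPM of the median gene was lower in ECLC by a log2 ratio of -0.29, and the fitted differences below are relative to the bulk of genes.

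ABCC4 changed most. It was at 11.8, 10.1 and 11.5 CPM in ISCLC and TALC of control 1, control 2 and LPS and at 1.03, 1.69 and 1.12 CPM in ECLC. The classes were far apart in every library, with a log2 difference of -2.89 (SE 0.29, edgeR adjusted p = 5.12e-07). Over the 3 libraries, ECLC held 13 ABCC4 UMIs and ISCLC and TALC held 319. With cells thinned to 1500 UMIs the log2 difference was -4.76. That value rests on almost no ECLC counts. After thinning, 0.062% ± 0.087 of ECLC control cells and 0% of ECLC in LPS held an ABCC4 UMI. ABCC1 was at 3.43, 3.93 and 4.57 CPM in ISCLC and TALC and at 0.412, 0.674 and 1.87 CPM in ECLC. The log2 difference was -1.91 (SE 0.43, edgeR adjusted p = 0.0013), and without the LPS library it was -2.54. The ECLC side rests on few counts, with 9 ABCC1 UMIs over the 3 libraries against 112 in ISCLC and TALC. ABCC5 was at 8.44, 9.51 and 8.65 CPM and at 1.65, 5.06 and 4.87 CPM (log2 difference -1.09, SE 0.29, edgeR adjusted p = 0.0046). For these genes no ECLC value reached an ISCLC and TALC value.

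ABCC2 was at 36.4, 34.9 and 39.6 CPM in ISCLC and TALC and at 53.2, 46.9 and 65.6 CPM in ECLC. The classes did not overlap, with a log2 difference of 0.82 (SE 0.10, edgeR adjusted p = 5.66e-06), or 1.76-fold. ABCC3 was at 73.6, 88.0 and 94.7 CPM and at 80.6, 95.1 and 119 CPM. It was higher in ECLC within each library, but the ranges overlapped across libraries (log2 difference 0.43, SE 0.10, edgeR adjusted p = 0.0015).

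The other members did not pass. The interval of the log2 difference was -0.19 to 0.29 for ABCA1, -0.54 to 0.83 for ABCG2 and -1.61 to 0.70 for ABCB1. ABCB1 had 34, 11 and 27 UMIs in ISCLC and TALC and 1, 4 and 11 in ECLC, so its direction rested on few UMIs. Without control 1 the difference was 0.46.

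Caco-2-like cells of each library were also ranked by the share of their UMIs on the 10 mature enterocyte genes and cut into 5 equal parts. ABCC4 fell from 15.5 ± 1.6 CPM in the lowest part to 2.09 ± 0.72 in the highest, over the 2 controls, and from 15.2 to 1.64 CPM in LPS. ABCC1 fell from 5.24 ± 1.18 to 1.06 ± 0.54 CPM at all 4 steps in each library. ABCC5 went from 10.3 ± 0.14 to 2.96 ± 1.95 CPM. ABCC2 stayed between 34.1 and 40.8 CPM over the lower 4 parts of the controls and was at 51.3 ± 5.6 CPM in the highest. ABCC3 went from 74.2 ± 7.8 to 88.6 ± 10.7 CPM. These are descriptions without a test, and the cells of the ECLC clusters contribute to the upper parts.

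**Figure D3:**
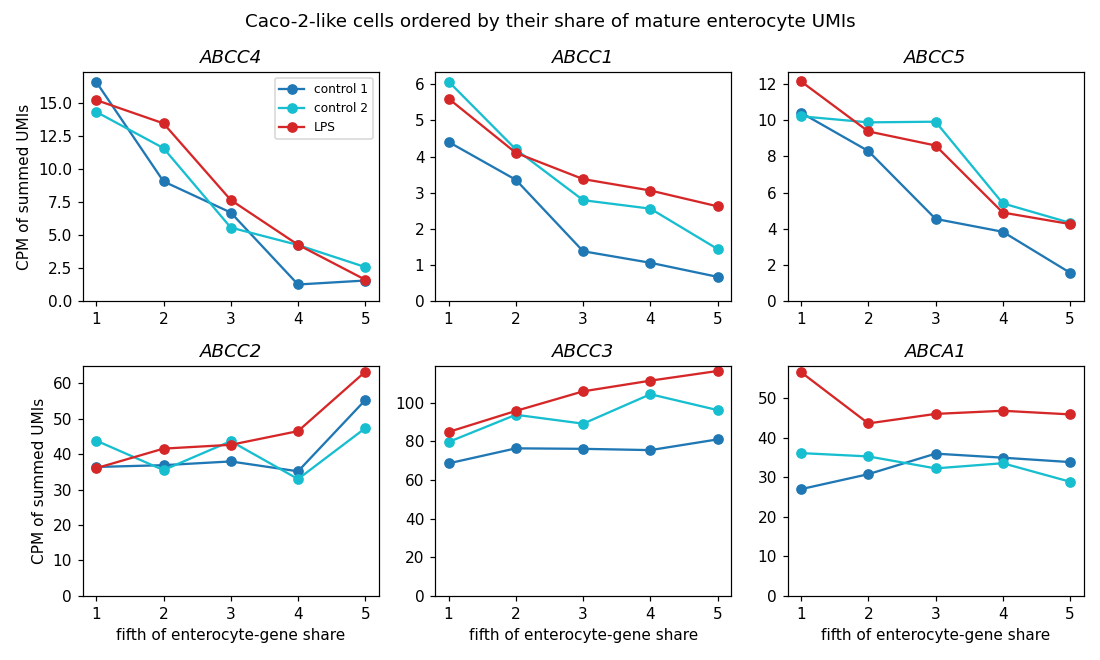
CPM of 6 transporters in Caco-2-like cells, split within each library into 5 parts by the share of UMIs on mature enterocyte genes (1 lowest, 5 highest), with a line for each library. ABCC4, ABCC1 and ABCC5 are lower in part 5 than in part 1 in all 3 libraries, and ABCC2 is highest in part 5.

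The 10 mature enterocyte genes were all higher in ECLC, which restates how that class was named, since the list and the class markers overlap. APOA4 (6.59), FABP2 (6.20) and CUBN (5.99) were among the largest differences on the log2 scale. Of 12 uptake and bile acid transporters, 10 were higher and 1 lower in ECLC. The ileal bile acid carrier SLC10A2 was higher by 4.31 (15 UMIs against 2), SLC15A1 by 3.24, the bile acid binding protein FABP6 by 2.84 and the basolateral bile acid exporter subunit SLC51A by 2.81. Of 13 genes of conjugating and glutathione synthesis enzymes, 9 were higher and 3 lower. UGT2B17 (6.80), SULT1B1 (4.43), GSTA1 (3.97) and SULT1E1 (2.88) led. The 3 lower were the glutathione synthesis genes GCLM, GSS and GCLC (here the gene, not the goblet-like class).

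Of 15 regulators, 11 were higher and 3 lower in ECLC. NR1I3 (3.92), the bile acid receptor NR1H4 (3.49), the xenobiotic sensor NR1I2 (3.02, with 26 UMIs against 10) and PPARA (1.60) led. Of 5 scaffold genes, 4 were higher and 0 lower: SLC9A3R1 (1.24), VIL1 (1.17), PDZK1 (0.97) and ezrin (EZR, 0.31). Of 16 sterol handling genes, 9 were higher and 3 lower. MTTP (4.03), APOB (3.16) and SOAT2 (1.92) were higher, and SOAT1 fell by 1.35 on the log2 scale. Among 22 other ABC genes, 5 were higher and 6 lower. ABCA5 was higher by 3.01 and ABCA7 by 1.36, ABCE1 was lower (-1.26), and ABCC9 fell from 129 UMIs to 1.

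Levels over the named classes of this clustering are given as descriptions, and their order leaves out the 4351 unnamed cells. An unnamed Caco-2-like cluster of 810 cells held ABCC2 at 65.0, 79.2 and 75.9 CPM in control 1, control 2 and LPS. That was above ISCLC and ECLC in each library. An unnamed HT29-like cluster of 50 cells held ABCC3 at 248, 293 and 218 CPM, above the CPM of GCLC in each library. It had only 5, 29 and 16 cells in control 1, control 2 and LPS, at a median of 2447, 1878 and 2130.5 UMIs. Its levels, that of control 1 above all, therefore carry a large counting error. ABCA1 was highest in EECLC, at 78.9 ± 14.8 CPM in the controls and 46.0 in LPS, and in ISCLC, at 66.0 ± 6.1 and 73.0 CPM. These neighbours overlapped. U-HT29 followed at 46.1 ± 11.9 CPM, TALC and ECLC lay together at 28.8 ± 3.6 and 28.8 ± 3.0 CPM, and GCLC were at 20.9 ± 1.8 CPM.

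ABCC3 was highest in GCLC (166 ± 7.7 CPM, LPS 151) and U-HT29 (129 ± 4.3, LPS 136), which did not overlap in the controls. ISCLC, ECLC, LYZ+ ECLC and TALC were at 92.6 ± 7.1, 87.9 ± 10.2, 79.8 ± 14.2 and 78.8 ± 13.0 CPM, within their spread of each other. EECLC were at 73.0 and 44.7 CPM in the controls and 130 in LPS, and FGEC were lowest at 14.2 ± 9.3 CPM. ABCC2 ran from 51.5 ± 7.2 CPM in ISCLC and 50.04 ± 4.5 in ECLC, which overlapped, through TALC at 33.3 ± 0.34, EECLC at 18.8 ± 5.6 and LYZ+ ECLC at 16.8 ± 2.1 to U-HT29 at 3.77 ± 0.23 and GCLC at 3.22 ± 0.07 CPM.

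ABCC4 was highest over the controls in ISCLC (14.1 ± 4.7 CPM, LPS 7.82), U-HT29 (12.1 ± 0.06) and TALC (10.4 ± 0.63), while in LPS the LYZ+ ECLC, which had markers of both lines raised, were highest at 20.3 CPM. That level rests on 8 UMIs in 47 cells (interval 8.77 to 40.0), against 7.15 ± 0.65 CPM from 7 and 10 UMIs in the controls. ABCC4 had 0 UMIs in EECLC in all 3 libraries and 0 in the GCLC of both controls. In the unnamed cluster led by SST and GCG it was at 0 CPM in both controls and at 16.9 CPM in LPS. There only 4.76% of 21 LPS cells held an ABCC4 UMI. Over the 3 libraries together, 0 of 618133 EECLC UMIs allows up to 4.85 CPM, which is below the 10.9, 9.97 and 11.9 CPM of TALC in control 1, control 2 and LPS. ABCC1 gave the opposite picture at low counts. It was at 22.9 and 9.50 CPM in the GCLC of the controls (7 and 3 UMIs) and at 13.7 and 14.9 CPM in EECLC (3 and 4 UMIs). TALC were at 3.75 ± 0.37 and ECLC at 0.543 ± 0.19 CPM. In LPS, ABCC1 lay below both controls in these first 2 classes, at 9.17 CPM in GCLC and 7.67 in EECLC, against 4.64 in TALC. FGEC were at 18.7 ± 10.3 CPM in the controls and at 0 in LPS.

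FGEC carried the highest ABCC5 and ABCG2 levels. ABCC5 was at 67.7 CPM in control 1 (13 UMIs) and 64.9 in control 2 (17 UMIs), above EECLC at 27.1 ± 6.8 and ISCLC at 15.7 ± 3.8 CPM. The single ABCC5 UMI of the 8 FGEC in LPS gives 26.6 CPM with an interval of 0.673 to 148. ABCG2 in FGEC was at 57.2 CPM in control 2 (15 UMIs, interval 32.0 to 94.4) and 10.4 in control 1 (2 UMIs, interval 1.26 to 37.6). Elsewhere ABCG2 was highest in TALC at 4.39 ± 1.87 CPM, close to ECLC at 3.64 ± 1.06. ABCB1 was at 10.6 CPM in the ISCLC of control 1 (17 UMIs in 7 cells), at 9.13 in those of LPS (7 UMIs in 5 cells) and at 0 in those of control 2, which allows up to 3.24 CPM. In TALC it was at 1.74, 1.34 and 2.73 CPM.

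**Figure D4:**
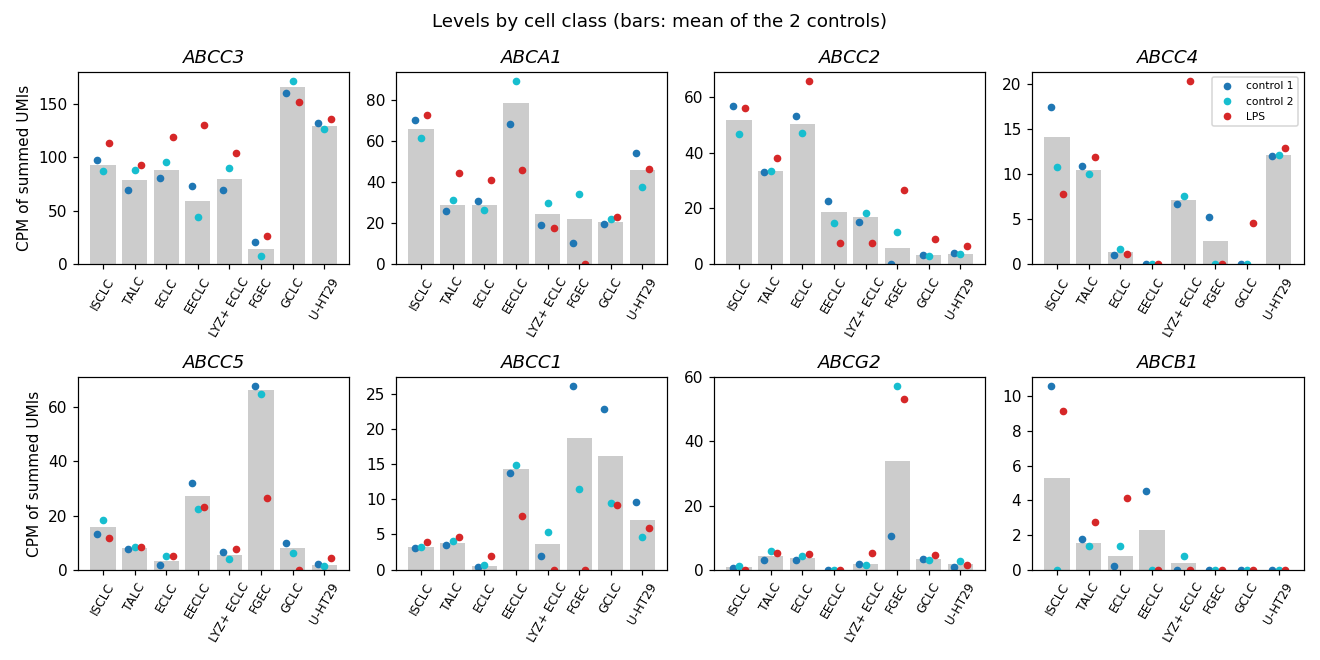
CPM of the 8 higher transporters by cell class (bars, mean of the 2 controls; points, the 3 libraries). Among the classes shown, which leave out the unnamed cells, ABCC2 is highest in ISCLC and ECLC and ABCC3 in GCLC and U-HT29. ABCC5 and ABCG2 are highest in FGEC, and ABCC4 is at 0 in EECLC.

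For the 6 members with at least 200 control UMIs, the genes with the most similar pattern were sought over 21 points, 7 classes in 3 libraries, among 14432 genes. These points share libraries, so r is a description. ABCC2 was most like GCNT2 (Pearson r = 0.92), CLDN19 (0.92) and PHYH (0.91). ABCC4 was most like CENPM (0.87), GAD1 (0.87) and KIF2C (0.86), and ABCC3 most like TMED7 (0.89), GDA (0.86) and DNASE1L1 (0.86). ABCC5 was most like TXNDC16 (0.92), RAB30-AS1 (0.91) and KIN (0.91), ABCC1 most like HYOU1 (0.89), SINHCAF (0.89) and PAIP2 (0.88), and ABCA1 most like FBXO28 (0.91), EPM2A (0.89) and GDPD1 (0.83).

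The third comparison sets the LPS library against the 2 controls. With 1 LPS library, its spread is assumed to equal that between the controls. Over the whole library, 0 of 9 members tested passed, against 0.0929% of all 16140 genes, or 15 genes (edgeR, with 728 genes at an unadjusted p under 0.05). By DESeq2, 7 genes passed. In Caco-2-like cells 0 of 9 members passed against 0.0458% of genes, and in HT29-like cells 0 of 7 against 0.0575%.

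ABCA1 showed the lowest p among the members. Its whole-library level was 34.7 CPM (interval 32.6 to 36.9) in control 1, 33.7 (31.4 to 36.0) in control 2 and 46.6 (43.7 to 49.7) in LPS. The LPS value lay above both controls. The log2 difference was 0.37 (SE 0.14, unadjusted p = 0.022, edgeR adjusted p = 0.94). In Caco-2-like cells it went from 32.5 and 33.3 to 47.8 CPM (log2 difference 0.45, SE 0.14, edgeR adjusted p = 0.67), and in HT29-like cells it lay at 52.1, 36.9 and 44.7 CPM (-0.06, SE 0.28). An ABCA1 UMI was held by 15.9% ± 2.9 of control cells and 16.0% of LPS cells before thinning and by 4.96% ± 0.47 and 6.87% after it. Of all genes at 1 CPM or more, 49.6% lay above both controls in LPS and 23.1% below both, so a level above both controls was common. The median gene was higher in LPS by a log2 CPM ratio of 0.08.

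Of the 10 members, 8 lay above both controls over the whole library and 0 below both, beside the 49.6% of genes at 1 CPM or more. Both ABCG5 and ABCG8 are among the 8 but lie below 1 CPM, and so outside that background. Among the 8 are ABCC1, at 4.13 CPM in both control 2 and LPS, and ABCG5, with 1 UMI in LPS against 1 and 0. ABCB1 was at 1.37, 0.899 and 2.11 CPM (log2 difference 0.80, interval -0.07 to 1.66, edgeR adjusted p = 0.94). ABCC2 in HT29-like cells was at 3.87, 3.53 and 7.36 CPM (log2 difference 0.93, SE 0.43, edgeR adjusted p = 1.00), and there the Caco-2 line markers also stood at a higher percentage in LPS than in either control, as given above. The share of that rise in the ABCC2 level was not tested. For ABCC3 and ABCC2 over the whole library, the intervals of the log2 difference were -0.12 to 0.49 and -0.19 to 0.43. The change with LPS did not pass as different between the lines for any member (8 tested, edgeR adjusted p = 1 in each), although 0.0467% of all genes did. ABCB1 gave no usable estimate there, since it was at 0 in HT29-like cells. None of the genes of the 7 other lists passed in any of the LPS comparisons.

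**Figure D5:**
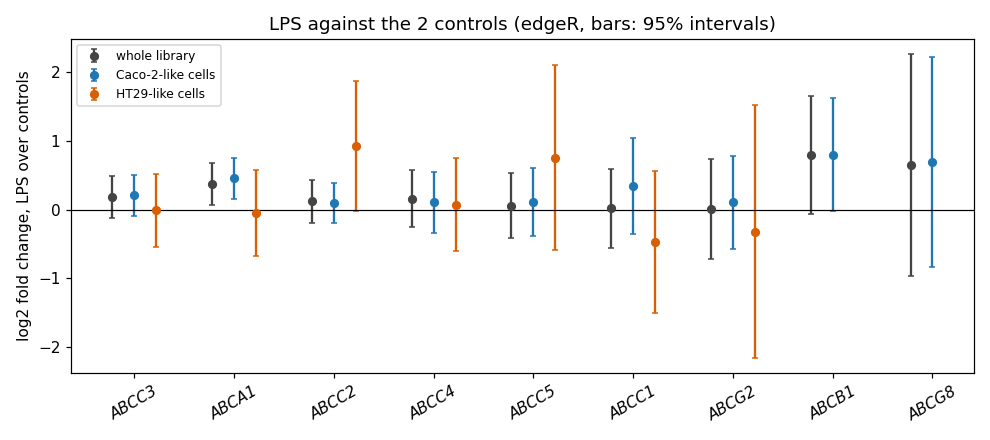
Log2 difference between the LPS library and the 2 controls for 9 members, with edgeR 95% intervals, over the whole library, in Caco-2-like and in HT29-like cells. No member passed the adjusted threshold. Before adjustment, the intervals of ABCA1 over the whole library, 0.06 to 0.67, and in Caco-2-like cells, 0.16 to 0.75, lie above 0.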

How the data were processed

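The deposited files hold raw UMI counts per gene and barcode, which the authors made with the 10x Genomics Cell Ranger pipeline on GRCh38. The file headers name version 3.1.0. All other filters of the authors came later and are not in these counts. Barcodes with at least 2250 UMIs and 770 genes (control 1) or 1500 UMIs and 700 genes (control 2 and LPS) and at most 20% mitochondrial UMIs were kept. The doublet caller found 0, 0 and 1 doublets by itself and thus had not worked, so the 6% of cells with the highest scores were removed from each library. Libraries were normalised with sctransform 0.4.2 and integrated in Seurat 5.3.0 on 2990 features without ABC family genes, then clustered in scanpy 1.11.5 (50 components, 15 neighbours, Leiden resolution 0.5), and the ECLC, secretory and U-HT29 clusters were split once more.

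A cluster took a class name when the mean log2 ratio of that class's markers was the highest and positive, at least 3 markers were raised and at least 1 was among its top 10 genes. Its line needed a gap of 1 between the mean log2 ratios of the line markers. These cut-offs were set after the clusters had been seen. Clusters led by liver-type secretory genes (507 cells) and by SST and GCG (60 cells) stayed unnamed.

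UMIs were summed per library and class and tested in edgeR 4.0.16 (TMM, filterByExpr, quasi-likelihood test, Benjamini-Hochberg over all genes tested). The members and gene lists were chosen with earlier results of these data known. Named genes are the 10 members, up to 4 genes per list and comparison with the largest difference among those past the threshold, the 5 highest other ABC genes and the 3 genes most like each member. Some genes that this rule names are not reported here. Sums of both lines from 1 library come from the same well. The correlations of their deviations were 0.25, 0.06 and 0.13. On simulated counts, 69.9% of genes changed by 1 log2 unit and 94.3% of those changed by 2 were recovered between the lines (14164 genes). Between LPS and controls over the whole library, 39.4% and 91.0% were recovered (16023 genes). The simulation gave all genes 1 fixed spread, drew the sums of a well independently and changed a small part of the genes, all above a minimum count. Its rates are therefore not the power of the tests for these members. Alternatives covered normalisation, resolution, doublets, minimums, tools, scaling, filters, depth, the replicate block and single libraries.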

Additional observations from a re-analysis of the deposited data

How the results depend on the processing

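Between the lines and between ECLC and ISCLC with TALC, the direction of every member that passed was kept under all alternatives run. With the library as a replicate block, which pairs the sums of 1 well, 10475 genes and 7 members passed between the lines and 8173 genes and 5 members between the classes, and no member's call changed. Leaving out each library in turn gave 8740 to 9633 genes and 6 to 7 members between the lines, and 6282 to 7275 genes and 5 members between the classes. Without control 1 the log2 difference turned for ABCA1 between the lines (-0.017, against up to 0.41 without another library) and between the classes (-0.069, up to 0.12), and for ABCB1 between the classes (0.46, down to -0.68). None of these passed the test. With cells thinned to 1500 UMIs, 4 members passed between the lines and 5000 genes between the classes, from fewer UMIs. ABCG2 and ABCC4 lost their calls there, and ABCB1 was below the filter. ABCA1 between the classes was then at -0.10, and without a filter on low counts at -0.026. At resolution 0.8, ABCG2 between the classes was at -0.066.

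Member calls with LPS stayed at 0 under all alternatives run, while the counts of genes moved and the cause was not tested. Over the whole library DESeq2 passed 7 genes and no filter 49. In Caco-2-like cells 14 passed without doublet removal, 37 without the filter, 2 by DESeq2, and 0 with the minimums of control 1 or with thinning. In HT29-like cells 22 passed with log normalization, 15 at resolution 0.8, 20 without doublet removal, 11 with RLE scaling, 4 by DESeq2, and 0 with the minimums of control 1 or without the filter. For the difference of the LPS effect between the lines, DESeq2 passed 0. The sign of some members turned. Thinning gave ABCC1 -0.50 and ABCC5 -0.31 over the whole library, ABCC1 -0.34, ABCC2 -0.016 and ABCC5 -0.24 in Caco-2-like cells, ABCC3 0.15 and ABCC4 -0.020 in HT29-like cells and ABCC5 -0.18 for the difference between lines. Without doublet removal ABCC1 was at -0.021 over the whole library, and ABCC3 at 0.013 and ABCC4 at -0.026 in HT29-like cells. Log normalization gave ABCC4 -0.17 there. ABCG2 over the whole library was at -0.0095 by DESeq2, -0.0012 with RLE scaling and -0.0076 without the filter.

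Under the alternatives, 175 member levels moved by at most the spread between controls and 25 by more. These were levels in HT29-like cells, Caco-2-like cells, ECLC, and ISCLC and TALC pooled. Levels in ISCLC alone, TALC alone, EECLC, GCLC, U-HT29, LYZ+ ECLC and FGEC were not checked in this way. A replicate block could not be fitted for LPS, which shares only 1 replicate number with the controls, and LPS values without 1 control have no test. ABCG5, ABCG8 and ABCB1 are limited by depth.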

Other observations

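ABCB1 was carried by few cells. The 41 UMIs of control 1 came from 26 cells, the 22 of control 2 from 17 cells and the 43 of LPS from 34 cells. The 5 cells with the most held 43.9%, 45.5% and 32.6% of the ABCB1 UMIs. For ABCC1, which had 108, 101 and 84 UMIs, the 5 cells with the most held 10.2%, 7.92% and 7.14%. Cells with at least 3 ABCB1 UMIs numbered 6, 1 and 4. In control 1, 4 of these were ISCLC and 2 TALC, in control 2 the 1 cell was TALC, and in LPS 1 was ISCLC and 3 were TALC. No such cell was HT29-like.

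CENPM and KIF2C, which act in cell division, were among the genes most like ABCC4, so it was also read in cells with a UMI of the proliferation genes MKI67 or TOP2A and in those without, within ISCLC and TALC. It was at 10.7, 8.59 and 11.8 CPM in the cells with such a UMI of control 1, control 2 and LPS and at 13.2, 12.5 and 11.0 CPM in those without. Over all Caco-2-like cells the order was the other way in both controls. There ABCC4 was at 9.49, 8.18 and 11.4 CPM in the cells with such a UMI and at 5.78, 7.49 and 6.53 CPM in those without. The TALC cluster led by the cell cycle genes SPC25, RRM2 and ESCO2 held ABCC4 at 3.41 CPM in the controls, against 12.9 CPM in the other TALC cluster. Within ISCLC and TALC, cells with a UMI of MKI67 or TOP2A were deeper, at a median of 7833 against 5213 UMIs in control 1. These groups were chosen after the values had been seen, and no test was run.

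Within U-HT29 the clusters differed in their transporters. ABCC3 ran from 89.9 to 217 CPM over the 4 clusters in the controls, ABCA1 from 15.2 to 89.9 CPM and ABCC4 from 6.16 ± 0.88 to 24.4 ± 15.9 CPM. The cluster of 217 cells led by AQP1 had the highest mean over the controls for all 3 genes. Its ABCC3 level was the highest of the 4 in each library, at 235, 198 and 182 CPM, whereas ABCA1 in LPS and ABCC4 in control 2 were higher in another cluster.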
